A study of Mus musculus with 2 samples.

Results

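The mitochondrial respiratory chain is built from subunits of 2 genomes, and the genes described here are its nuclear-encoded ones. They were taken by symbol: every gene whose name starts with Nduf, Uqcr, Cox4, Cox5, Cox6, Cox7, Cox8 or Atp5, together with Sdha, Sdhb, Sdhc, Sdhd, Cyc1 and Cycs. Among the 31053 genes of the files, 95 rows carried such a name and 88 of them reached the required 100 UMIs (unique molecular identifiers, each counted as 1 captured transcript) over both libraries. The 7 left out were Cox4i2, Cox6a2, Cox7b2, Cox8b, Cox8c, Ndufa4l2 and a second Atp5o entry. The limit fell in a wide gap, with Cox6a2 just outside it at 28 UMIs and Cox6b2 just inside it at 1761 UMIs. The 88 members comprise 36 subunits of complex I, 8 complex I assembly factors (Ndufaf1 to Ndufaf8), 4 subunits of complex II, 9 of complex III, cytochrome c (Cycs), 14 genes of complex IV and 16 of complex V.

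The cells came from the jejunum of mice carrying Lgr5-eGFP-IRES-CreER, an allele that places a green fluorescent protein and an inducible recombinase under the stem cell gene Lgr5, and they had been sorted for GFP. One group is labelled FZD5/8 antagonist, after the Wnt receptors FZD5 and FZD8, and the other Fc control. Both groups carry the reporter allele, and each is labelled as 3 female mice, aged 10 to 12 weeks. Droplet-based 3' counting gave 1 library per group, with mice pooled and no label that ties a cell to a mouse. Neither dose nor duration is stated in the sources used here.

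The respiratory chain passes electrons from NADH (complex I) or succinate (complex II) through complex III and the mobile carrier cytochrome c to oxygen at complex IV, and ATP synthase, called complex V, makes ATP from the resulting proton gradient. Complexes I, III, IV and V each need subunits encoded by mitochondrial DNA beside the nuclear ones, whereas complex II is wholly nuclear. In the small intestine, crypt base stem cells divide and feed absorptive and secretory lineages, and enterocytes, the absorptive cells of the villus, are rich in mitochondria.

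Of 13085 barcodes in the antagonist library and 12672 in the control library, 11019 and 11263 cells passed limits of 500 or more genes and no more than 20% mt- UMIs, those of mitochondrially encoded genes. Kept cells held 54328008 UMIs in the antagonist library and 66206242 in the control library, with medians of 2732 and 4478 UMIs per cell. The libraries shared 145 barcodes, 67 of them kept in both. The sex-linked transcripts went against the label of the control library: Xist stood at 512 and 1.33 UMIs per 1000000 UMIs (CPM) and 4 Y-linked genes together at 5.60 and 106 CPM in the antagonist and control libraries. Epcam, an epithelial marker, was at 2868 and 2704 CPM, and 15 non-epithelial markers together at 8.80 and 15.7 CPM, with Col1a1 and Col3a1 at 0 in at least 1 library. Both libraries are labelled as Lgr5+ stem cells, but Lgr5 was at 3.09 CPM in the antagonist library against 66.2 CPM in the control library, and 10 of 10 stem cell markers were more than 1.2-fold lower in the antagonist library, at 788 against 3986 CPM in all. Summed enterocyte markers were at 7857 against 4041 CPM, with 14 of 15 more than 1.2-fold higher. Over all 11772 genes with at least 100 UMIs, 36.3% were more than 1.2-fold lower and 15.4% higher. Other marker classes differed too: 14 of 16 G2 and M phase markers were higher, 12 of 14 Paneth markers lower, and of 17 enteroendocrine markers 11 were lower and 2 higher. With 1 library per group no test of the conditions exists: the ratios below compare 2 libraries, and their exact 95% intervals cover counting error only. Because the libraries also differ in the sex-linked transcripts above, group and apparent sex cannot be told apart in these ratios. In summed counts, fewer cells of a type and less RNA per cell cannot be told apart.

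Promoter windows, from 250 bases before to 50 after a transcription start, were found for 75 of the 88 members in RefSeq on GRCm38.p6; those without one include Ndufs1, Sdhc, Ndufaf6, Uqcrc2, Cox4i1, Uqcrq, Uqcrb, Cox6c, Ndufb9, Cyc1, Ndufa2 and Atp5a1. Those printed belong to genes on which the results turn: the complex IV isoforms Cox7a1 (chr7:30183921-30184220, plus strand) and Cox7a2 (chr9:79759804-79760103, minus strand), cytochrome c Cycs (chr6:50566520-50566819, minus strand), and the ATP synthase c ring isoforms Atp5g1 (chr11:96075582-96075881, minus strand) and Atp5g2 (chr15:102670998-102671297, minus strand). Capitals mark a CRE and an NRF1 motif in Cycs and an NRF1 motif, read on both strands, in Atp5g2.
Cox7a1: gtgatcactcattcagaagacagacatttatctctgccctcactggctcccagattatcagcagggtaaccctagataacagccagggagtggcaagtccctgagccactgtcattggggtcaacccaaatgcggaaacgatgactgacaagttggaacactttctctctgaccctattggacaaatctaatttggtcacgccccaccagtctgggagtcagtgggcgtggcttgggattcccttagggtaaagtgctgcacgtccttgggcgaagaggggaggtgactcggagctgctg
Cox7a2: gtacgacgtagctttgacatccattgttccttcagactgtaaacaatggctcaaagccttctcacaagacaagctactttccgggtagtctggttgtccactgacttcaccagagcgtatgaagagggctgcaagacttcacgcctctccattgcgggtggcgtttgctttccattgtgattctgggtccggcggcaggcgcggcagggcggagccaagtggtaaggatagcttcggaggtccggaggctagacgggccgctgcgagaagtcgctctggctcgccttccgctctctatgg
Cycs: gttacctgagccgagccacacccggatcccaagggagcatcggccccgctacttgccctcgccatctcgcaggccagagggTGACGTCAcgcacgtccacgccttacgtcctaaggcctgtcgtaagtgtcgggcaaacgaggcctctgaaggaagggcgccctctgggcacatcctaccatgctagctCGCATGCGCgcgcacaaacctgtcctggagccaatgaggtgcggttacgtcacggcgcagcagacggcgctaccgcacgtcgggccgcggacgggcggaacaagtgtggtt
Atp5g1: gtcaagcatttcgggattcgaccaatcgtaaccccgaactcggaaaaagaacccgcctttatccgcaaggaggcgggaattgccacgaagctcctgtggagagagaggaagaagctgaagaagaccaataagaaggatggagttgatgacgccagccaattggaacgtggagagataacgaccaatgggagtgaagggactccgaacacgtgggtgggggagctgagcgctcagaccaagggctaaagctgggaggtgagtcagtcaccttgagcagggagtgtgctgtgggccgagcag
Atp5g2: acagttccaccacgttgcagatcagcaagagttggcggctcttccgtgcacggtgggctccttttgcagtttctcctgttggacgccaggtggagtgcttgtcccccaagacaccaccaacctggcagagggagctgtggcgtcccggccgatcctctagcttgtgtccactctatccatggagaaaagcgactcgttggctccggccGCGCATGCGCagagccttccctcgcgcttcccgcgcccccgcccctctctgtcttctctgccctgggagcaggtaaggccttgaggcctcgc

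The motifs were searched on both strands as fixed letters: GCGCANGCG for NRF1, CCGGAAGT for ETS factors, TCAAGGTCA for ERR, AAGATGGCG for YY1 and TGACGTCA for CRE. The NRF1 letters stood in a window of 23 of 75 member genes (30.7%), against 7.03% of 27025 genes in the same table. The ETS letters stood in 5 member genes (6.67%, against 4.31% of all), ERR in 2 (2.67%, against 0.466%), YY1 in 8 (10.7%, against 1.64%) and CRE in 5 (6.67%, against 2.03%). This background was not matched to the members in base composition, CpG dinucleotides or level, and the part of these in the shares was not tested. The windows of Cox7a1, Cox7a2 and Atp5g1 held none of the 5 motifs, which says only that these letters are not there. The Cox7a1 window had 7 CpG dinucleotides, against 20 in Cox7a2, 32 in Cycs, 16 in Atp5g1 and 20 in Atp5g2.

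The respiratory chain genes took a larger share of the antagonist library than of the control library. Their summed UMIs made up 7.56% of the antagonist library and 5.51% of the control library, a ratio of 1.37 (95% interval 1.37 to 1.37). Of the 88 members, 83 were higher and 5 lower in the antagonist library, and the counting interval of the ratio lay above 1 for 81, below 1 for 2 and held 1 for 5. The median member ratio was 1.32, with quartiles of 1.23 and 1.44, whereas the median over all 11772 genes with at least 100 UMIs was 0.912. At a limit of 1.2-fold, 71 members were higher (80.7% of them), against 15.4% of all genes, and 1 was lower, against 36.3% of all genes. At 1.5-fold, 14 members were higher (15.9%, against 5.60% of all genes) and 1 was lower (against 15.2%). Among the 5503 genes that reached 20 CPM over both libraries together, as 86 members did, 16.6% were more than 1.2-fold higher and 24.9% more than 1.2-fold lower.

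Single cells showed the same order. The share of a cell's UMIs from the 88 members had a median of 7.68% in the antagonist library (quartiles 6.24% and 8.98%) and 4.98% in the control library (3.73% and 6.28%), so that the lower quartile of the antagonist cells was close to the upper quartile of the control cells. Cells of a library are not replicates, and these quartiles describe each library only.

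**Figure D1:**
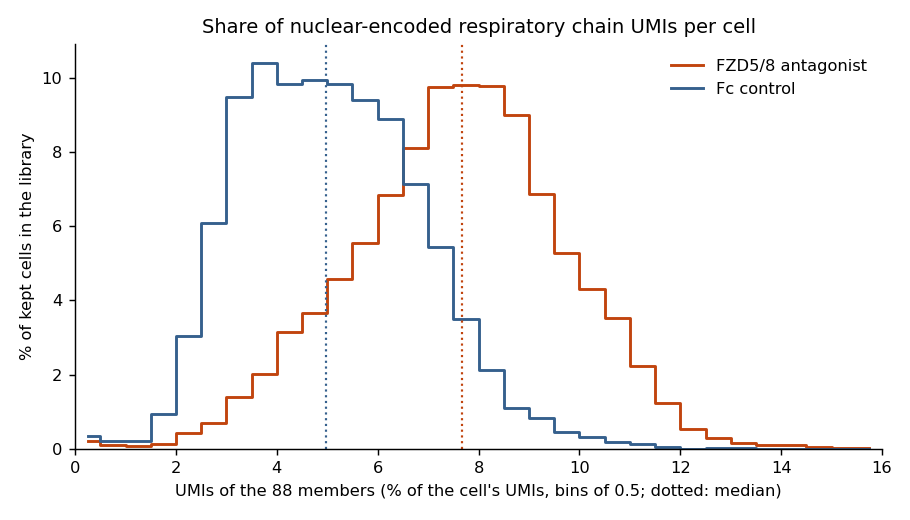
Share of each cell's UMIs that came from the 88 nuclear-encoded respiratory chain genes (x axis, percent, bins of 0.5) against the percentage of kept cells in each bin (y axis), for the FZD5/8 antagonist library and the Fc control library. Dotted lines mark the medians of 7.68% and 4.98%, and the distributions overlap.

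Complex I is the NADH dehydrogenase and the largest of the complexes. Its 36 subunit genes together were at 19346 CPM in the antagonist library and 14508 CPM in the control library, a ratio of 1.33 (1.33 to 1.34). All 36 were higher, from 1.09 for Ndufa7 to 1.66 for Ndufa3, and 31 passed 1.2-fold. The 7 nuclear core subunits, which with mt-encoded ones carry the flavin, iron-sulphur clusters and quinone site, had a summed ratio of 1.27 (1.26 to 1.28), and the 29 accessory subunits one of 1.34 (1.34 to 1.35). Ndufs3 was the lowest of the core genes, with 295 CPM in the antagonist library against 269 CPM in the control library, a ratio of 1.09 (1.07 to 1.12). Its direction turned with gates weighted alike (log2 ratio -0.02). Ndufs1, which carries several iron-sulphur clusters, had the highest core ratio of 1.34 (1.29 to 1.39).

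Among the accessory subunits Ndufa3 was at 888 CPM in the antagonist library and 535 CPM in the control library (ratio 1.66, 1.64 to 1.68). Ndufs5 and Ndufc1 had ratios of 1.55 each, at 399 against 257 CPM and 955 against 615 CPM. Ndufab1, the mitochondrial acyl carrier protein, had the most UMIs of the complex I genes over both libraries together, at 1155 CPM against 837 CPM (1.38, 1.36 to 1.40). In the control library Ndufb8 stood above it, and Ndufb8 was at 1083 against 885 CPM (1.22, 1.21 to 1.24). Ndufa7 was at 838 against 769 CPM (1.09, 1.08 to 1.10). The X-linked accessory genes Ndufa1 and Ndufb11 had ratios of 1.25 and 1.26, inside the span of the autosomal ones, as did the X-linked complex IV gene Cox7b at 1.40.

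The 8 assembly factors, which help build complex I but are not part of it, differed less between the libraries. Their sum was 566 CPM in the antagonist library and 470.4 CPM in the control library, a ratio of 1.2 (1.18 to 1.22), and 3 of the 8 passed 1.2-fold. Ndufaf4, Ndufaf3 and Ndufaf2 had ratios of 1.40, 1.31 and 1.28. Ndufaf7, a methyltransferase, Ndufaf1, Ndufaf5 and Ndufaf6 stood at 0.980 to 1.02, each with a counting interval that held 1.

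Complex II, succinate dehydrogenase, also works in the citric acid cycle. All 4 of its genes were higher in the antagonist library: the iron-sulphur subunit Sdhb at 828 against 588 CPM (1.41, 1.39 to 1.43), the membrane anchors Sdhc at 184 against 125 CPM (1.47, 1.42 to 1.51) and Sdhd at 255 against 197 CPM (1.29, 1.26 to 1.32), and the flavoprotein Sdha at 151 against 123 CPM (1.23, 1.19 to 1.27). Sdha, the catalytic subunit, thus had the lowest ratio of the complex.

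Complex III, the cytochrome bc1 complex, was at 8808 CPM in the antagonist library and 6527 CPM in the control library (1.35, 1.34 to 1.35), with 9 of 9 genes higher and 6 past 1.2-fold. Its small subunits spanned the range, from Uqcrh, Uqcr10 and the core protein Uqcrc2 at 1.17 to 1.18 up to Uqcr11 at 1319 against 829 CPM (1.59, 1.57 to 1.61). The most abundant, Uqcrq, was at 1789 against 1318 CPM (1.36, 1.34 to 1.37). The electron-carrying subunits Cyc1 (cytochrome c1) and Uqcrfs1 (the Rieske protein) both had a ratio of 1.41, at 763 against 540 CPM and 594 against 420.4 CPM.

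Cytochrome c, which shuttles electrons from complex III to complex IV and also acts in apoptosis, differed more than any of the other members above 1000 CPM in a library. Cycs (chr6:50562563-50566538, minus strand) had 1306 CPM in the antagonist library and 716 CPM in the control library, a ratio of 1.82 (1.80 to 1.84). Processed copies of Cycs exist in the mouse genome, and how reads shared with such copies were assigned is not stated in these sources.

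Complex IV, cytochrome c oxidase, was at 24896 CPM in the antagonist library and 17465 CPM in the control library (1.43, 1.42 to 1.43), the highest sum of the 5 complexes in both libraries. Ndufa4, named for complex I and counted here with complex IV, of which its protein is a subunit, was at 3506 against 2300 CPM (1.52, 1.51 to 1.53). The most abundant member of all, Cox8a, was at 3522 against 2525 CPM (1.39, 1.39 to 1.40). Cox4i1, the main form of the regulatory subunit IV, had 2679 against 2053 CPM (1.31), whereas its lung-enriched relative Cox4i2 had 2 UMIs in the antagonist library and 1 in the control library.

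The subunits Cox5a and Cox5b had ratios of 1.52 and 1.40, at 1808 against 1186 CPM and 2380.1 against 1695 CPM. Cox6a1 was at 805 against 574 CPM (1.40), beside 23 and 5 UMIs of the muscle form Cox6a2. Cox7b was at 1444 against 1029 CPM (1.40), with no UMI of Cox7b2, and Cox8a stood beside 0 and 1 UMIs of Cox8c and none of Cox8b. Cox4i1, Cox6a1, Cox7b and Cox8a therefore made up nearly all UMIs of their isoform families in both libraries. Cox7a2l, a factor that joins complexes III and IV into supercomplexes, was at 204 against 176 CPM (1.16, 1.13 to 1.19).

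Complex IV also held the members at both ends of the range, Cox7a1 and Cox6b2. Cox7a1, the heart and muscle form of subunit VIIa (chr7:30184144-30186078, plus strand, GENCODE annotation of GRCm38), had 89.8 CPM in the antagonist library and 29.5 CPM in the control library (3.04, 2.89 to 3.21). On the log2 scale this ratio of 1.61 was 1.05 with the gates weighted alike and 2.36 with depth ranges weighted alike. Its ubiquitous counterpart Cox7a2 had 1602 and 1047 CPM (1.53, 1.51 to 1.55). The share of Cox7a1 in the UMIs of both genes was 5.31% (exact binomial interval 5.16 to 5.45) in the antagonist library and 2.74% (2.62 to 2.86) in the control library. Cox6b2, known as the testis form of subunit VIb (chr7:4751792-4753094, minus strand), had 10.9 CPM in the antagonist library and 17.7 CPM in the control library (0.617, 0.558 to 0.682), while the somatic Cox6b1 had 1937 and 1338 CPM (1.45, 1.44 to 1.46).

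Complex V, ATP synthase, was at 19249 CPM in the antagonist library and 14369 CPM in the control library (1.34, 1.34 to 1.34), with 14 of its 16 genes past 1.2-fold. The 5 genes of the catalytic F1 head and central stalk (Atp5a1, Atp5b, Atp5c1, Atp5d and Atp5e) spanned 1.23 to 1.32, and the 4 of the peripheral stalk spanned 1.25 (Atp5f1) to 1.56 (Atp5o, at 1424 against 914 CPM). The small membrane subunits Atp5j2, Atp5l and Atp5k had 1.47, 1.54 and 1.55, with Atp5k at 807 against 521 CPM. Atp5s, coupling factor B, was lower, at 25.6 against 30.3 CPM (0.843, 0.787 to 0.903).

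The c ring, which turns with proton flow, is encoded by 3 genes whose mature proteins are the same. Atp5g1 was at 2552 CPM in the antagonist library and 1811 CPM in the control library (1.41, 1.40 to 1.42) and Atp5g3 at 1387 against 909.9 CPM (1.52, 1.51 to 1.54). Atp5g2 (chr15:102662864-102672352, minus strand) was at 1459 against 1466 CPM, a ratio of 0.995, with a counting interval that held 1. Its share of c ring UMIs was 27.0% (26.9 to 27.2) in the antagonist library and 35.0% (34.8 to 35.2) in the control library. Since these genes are alike in their coding parts, some reads could be assigned to the wrong one.

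**Figure D2:**
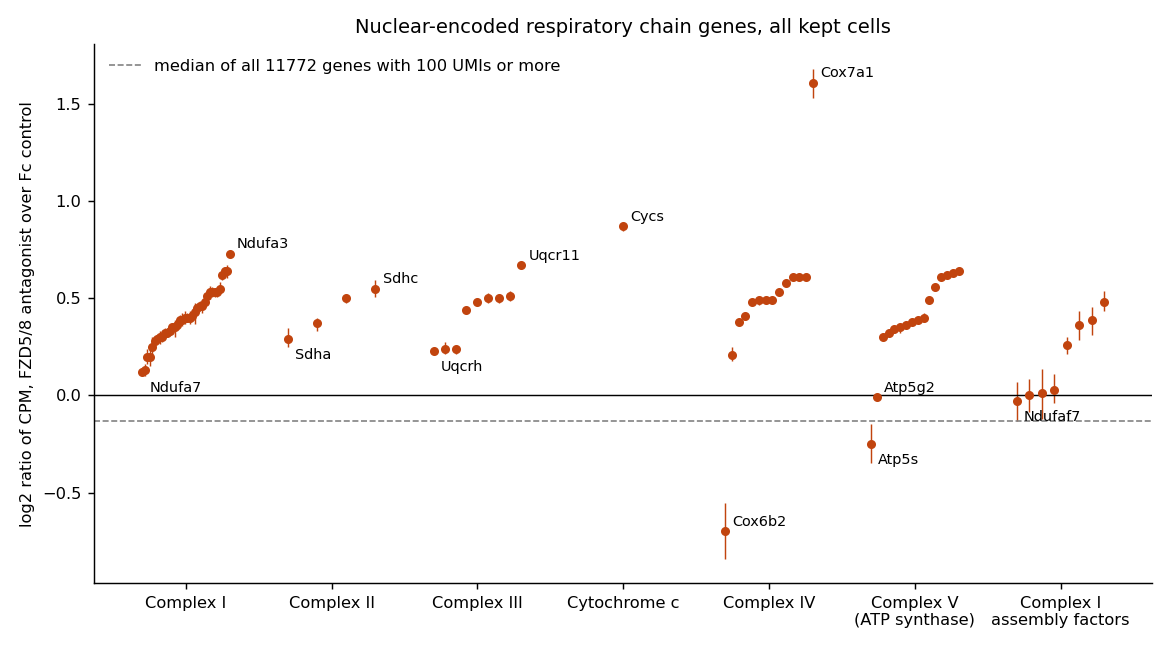
Log2 ratio of CPM, FZD5/8 antagonist over Fc control, for each of the 88 members (points) by complex, with exact 95% intervals for counting error (lines); the dashed line is the median of all 11772 genes. Of the 88 points 83 lie above 0, with Cox7a1 and Cycs the highest and Cox6b2 and Atp5s the lowest.

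The mitochondrially encoded genes did not show the same difference. The 13 mt- protein genes together made up 3.62% of UMIs in the antagonist library and 3.43% in the control library, a ratio of 1.05 (1.05 to 1.06), and 7 of the 13 were higher. mt-Nd1 of complex I had the highest ratio, at 2111 against 1586 CPM (1.33, 1.32 to 1.34), and mt-Nd3 was at 212 against 169 CPM (1.26). mt-Cytb of complex III, the most abundant, was at 9815 against 8609 CPM (1.14). Of the catalytic core of complex IV, mt-Co1 was at 6511 against 6916 CPM (0.941), mt-Co2 at 3901 against 3682 CPM (1.06) and mt-Co3 at 4601 against 4080.1 CPM (1.13). The complex V genes mt-Atp6 and mt-Atp8 had ratios of 0.967 and 0.702. The other complex I genes mt-Nd2, mt-Nd4, mt-Nd4l, mt-Nd5 and mt-Nd6 spanned 0.897 to 1.04. The reading frames of mt-Atp8 and mt-Atp6, and of mt-Nd4l and mt-Nd4, share a transcript, so that counts at its 3' end cannot tell their partners apart.

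Set against each other, nuclear members had 2.09 UMIs per mt- UMI in the antagonist library and 1.61 in the control library, a ratio of 1.30 (1.30 to 1.30). Within the complexes with both kinds of subunit, nuclear UMIs per mt- UMI were 2.46 against 1.97 for complex I, 0.897 against 0.758 for complex III, 1.66 against 1.19 for complex IV and 5.55 against 3.97 for complex V. The order of the complexes was the same in both libraries.

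Both quantities varied with the depth of the cell. In 6 ranges with limits at 1000, 2000, 4000, 8000 and 16000 UMIs per cell, from the shallowest to the deepest, the ratio of the members' summed share was 1.77, 1.87, 1.71, 1.51, 1.37 and 1.29, above 1 in each range. In cells from 8000 to below 16000 UMIs, 63 of 88 members were more than 1.2-fold higher, against 14.4% of all genes with at least 20 UMIs there, and in cells of 16000 or more 71 of 88 were, against 47.3%. The mt- ratio over the same ranges was 0.526, 0.50, 0.672, 0.955, 1.14 and 1.80. Nuclear UMIs per mt- UMI therefore had a ratio of 3.36 in the shallowest cells and 0.713 in the deepest. Shallow control cells were rich in mt- UMIs: in cells under 1000 UMIs mt- protein genes took 6.07% of the antagonist library and 11.5% of the control library, and in cells of 16000 or more 3.87% and 2.15%. Cells under 2000 UMIs were 37.3% of the antagonist library and 21.1% of the control library, and the part of depth in the mt- values was not tested. With the depth ranges weighted alike in both libraries, by their mean share of cells, the log2 ratio of the mt- sum was -0.57 in place of 0.08 and that of nuclear UMIs per mt- UMI 1.25 in place of 0.38. This setting also counts by cells in place of UMIs. With each cell weighted alike, without regard to depth ranges, the 2 values were -0.34 and 0.92.

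**Figure D3:**
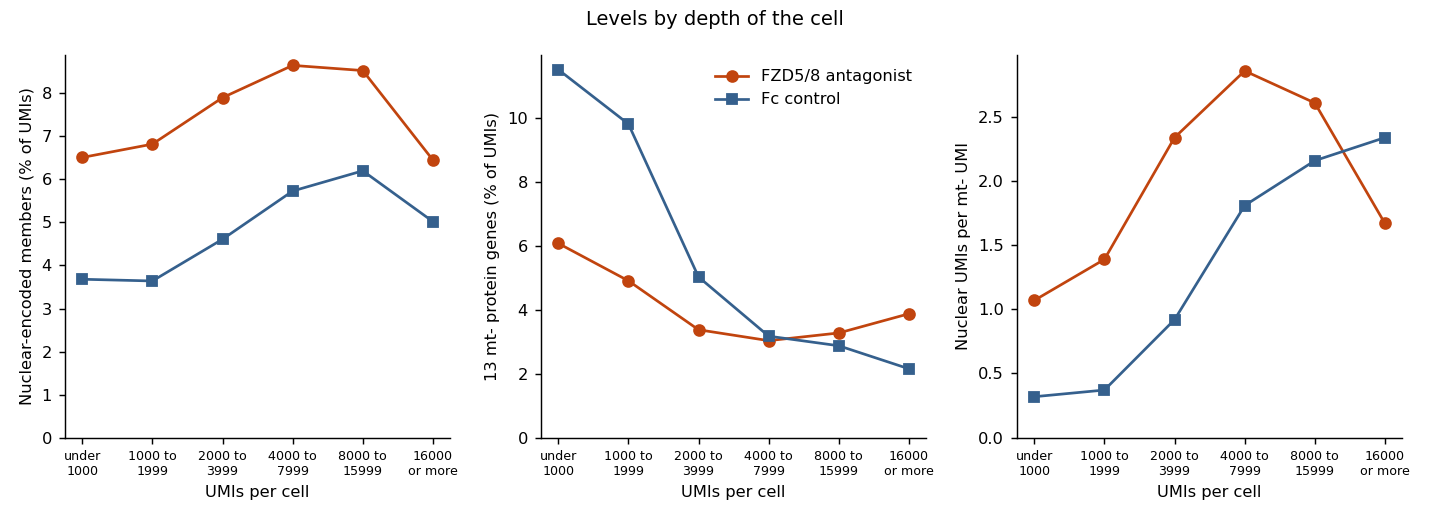
Summed share of the 88 nuclear members (left) and of the 13 mt- protein genes (middle), in percent of UMIs, and nuclear UMIs per mt- UMI (right), by UMIs per cell (x axis), for the FZD5/8 antagonist library and the Fc control library. The antagonist line lies above the control line at all 6 depths in the left panel, whereas the lines cross in the middle and right panels.

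Cells were next assigned to gates by summed marker genes, at limits set on the values of these data. The Paneth, goblet, enterocyte, tuft and enteroendocrine gates came first, then cells with G2 and M phase or S phase genes, then Lgr5-positive cells, cells high in Dmbt1, a mucosal scavenger receptor gene, cells high in the stem cell gene Olfm4, and the rest. Any Lgr5 UMI made a remaining cell Lgr5-positive, whatever its depth. In 11 gates with at least 50 cells in each library, the summed members were higher in the antagonist library in 11 of 11 and past 1.2-fold in 9. In every one of the 11 gates 41 of the 88 members were higher (46.6%), against 2.58% of all 11772 genes, and in the 10 gates without the Paneth gate again 41, against 2.60%. This background is not matched to the members in level. In the enteroendocrine gate, for example, 4896 genes held at least 20 UMIs, as 84 of the 88 members did, and genes with few UMIs in a gate can fail by count alone. The gates drew on very different numbers of cells: the Lgr5-positive gate held 69 antagonist cells and 1918 control cells, the Olfm4-high gate 355 and 3735, and the Dmbt1-high gate 3137 and 465. Lgr5-positive cells had medians of 6173 UMIs in the antagonist library and 4928 in the control library, against 2732 and 4478 in all kept cells. The part of free RNA or doublets in this gate was not tested.

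In the Lgr5-positive gate members made up 6.84% of UMIs in antagonist cells and 5.54% in control cells (1.24, 1.23 to 1.24), and 50 of 88 passed 1.2-fold higher, against 21.2% of all genes there. The ratio was 1.74 in its cells under 4000 UMIs and 1.19, short of 1.2-fold, in deeper ones. The 69 antagonist cells of this gate also differed from the 1918 control cells in their markers: the medians per 10000 UMIs were 11.6 against 61.9 for stem cell markers, 112 against 66.4 for Paneth, 22.0 against 3.13 for goblet and 21.0 against 3.79 for G2 and M phase markers. The part of these markers in the member values was not tested. In the Olfm4-high gate the shares were 7.37% and 5.67% (1.30, 1.29 to 1.31), with 59 of 88 past 1.2-fold, against 24.2%. Over all depths dividing cells differed more than Lgr5-positive and Olfm4-high cells. The S phase gate had 8.37% and 5.89% (1.42, 1.42 to 1.43), with a median member ratio of 1.35 against 0.900 for all genes there. The G2 and M phase gate had 7.63% and 5.75% (1.33, 1.32 to 1.33), with 64 of 88 past 1.2-fold, against 17.3%. In cells of 4000 UMIs or more the ratio was 1.42 in S phase, 1.29 in G2 and M phase and 1.30 in Olfm4-high cells. At that depth G2 and M phase cells thus did not differ more than Olfm4-high cells. In the Dmbt1-high gate the shares were 8.11% and 6.32% (1.28, 1.28 to 1.29), with 47 of 88 against 15.2%. The Dmbt1-high ratio was 1.72 in cells under 4000 UMIs and 1.18, short of 1.2-fold, in deeper ones. Complex IV had the highest ratio of the 5 complexes in the Olfm4-high, S phase, G2 and M phase and Dmbt1-high gates, from 1.38 to 1.52, but not in the Lgr5-positive gate, where complex III had 1.30 and complex IV 1.23.

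Summed over all depths, enterocyte-gated cells had the highest member share in both libraries, 9.24% in 516 antagonist cells and 8.29% in 191 control cells, and one of the smallest differences (1.11, 1.11 to 1.12). There 63 of 87 measured members were higher, 16 of them past 1.2-fold, against 25.8% of all genes, and 1 was past 1.2-fold lower, against 22.5% of all genes. Control cells of this gate were deeper, with medians of 3358 UMIs in antagonist cells and 7744 in control cells. In its cells under 4000 UMIs the members' ratio was 1.73 and in deeper ones 1.14, and with cells thinned to 2000 UMIs the log2 ratio was 0.34 in place of 0.16. Among antagonist cells under 4000 UMIs the enterocyte gate had a member share of 8.06%, below the 8.15% outside the named gates. In the goblet gate the shares were 6.15% and 4.50% (1.37, 1.36 to 1.38), with 72 of 88 past 1.2-fold, against 27.4%. The tuft gate had 6.55% and 5.32% (1.23, 1.22 to 1.25; log2 ratio 0.30, and 0.24 with gate limits doubled, short of 1.2-fold) and the enteroendocrine gate 6.70% and 5.01% (1.34, 1.31 to 1.36). In cells outside the named gates the shares were 7.61% and 7.16% (1.06, 1.06 to 1.07), with 15 of 88 past 1.2-fold, against 21.5%. Among those under 4000 UMIs the shares were 8.15% and 4.50% (1.81), and among those of 4000 UMIs or more 7.52% and 7.80% (0.963). With each cell weighted alike the log2 ratio there was 0.49 in place of 0.09.

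The Paneth gate gave the highest ratio, 5.55 (5.48 to 5.63), from 3.80% in antagonist cells and 0.684% in control cells, but 91.5% of all genes measured there were also more than 1.2-fold higher. The 14 Paneth markers, most of them defensins, had gate medians of 2214 and 1476 UMIs per 10000 in the antagonist and control libraries. In control cells of 4000 UMIs or more in this gate, members were at 0.577% and mt- genes at 0.438% of UMIs, and in those under 4000 at 3.13% and 9.74%. The ratio in cells under 4000 UMIs was 1.83, and with each cell weighted alike the log2 ratio of the members was 1.09 in place of 2.47, so that the value of this gate rests on its deep cells.

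Nuclear UMIs per mt- UMI were higher in the antagonist library in 6 of the 11 gates. They were 2.59 against 1.76 in S phase, 2.20 against 1.61 in G2 and M phase, 2.15 against 1.51 in Dmbt1-high and 1.86 against 1.42 in Olfm4-high cells. Cells outside the named gates ran the other way, at 1.79 against 2.14. In the Lgr5-positive gate they were 1.45 against 1.5, in the goblet gate 2.12 against 2.12, in the tuft gate 2.02 against 2.06 and in the enteroendocrine gate 2.29 against 2.36.

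These values again went with depth. In Lgr5-positive cells under 4000 UMIs nuclear UMIs per mt- UMI were 1.84 against 0.823 (2.23), and in deeper ones 1.44 against 1.70 (0.848). With each cell weighted alike, the log2 ratio of the Lgr5-positive gate was 0.60 in place of -0.05. In the goblet gate they were 1.88 against 1.06 (1.77) in cells under 4000 UMIs and 2.22 against 2.21 in deeper ones. In the Dmbt1-high gate they were 1.82 against 0.653 (2.79) and 2.34 against 2.23 (1.05), and outside the named gates 2.19 against 0.625 (3.51) and 1.73 against 3.22 (0.537). In each of these 4 gates the shallower cells thus had the higher ratio, and the near equality in the Lgr5-positive and goblet gates does not hold at both depths. The other gates split at 4000 UMIs had the same order. Ratios in shallower and deeper cells were 3.02 and 1.41 in S phase and 2.34 and 1.28 in Olfm4-high cells. In G2 and M phase they were 3.73 and 1.18, the latter short of 1.2-fold. The enterocyte gate had 2.78 and 1.14 and the Paneth gate 7.30 and 1.69.

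**Figure D4:**
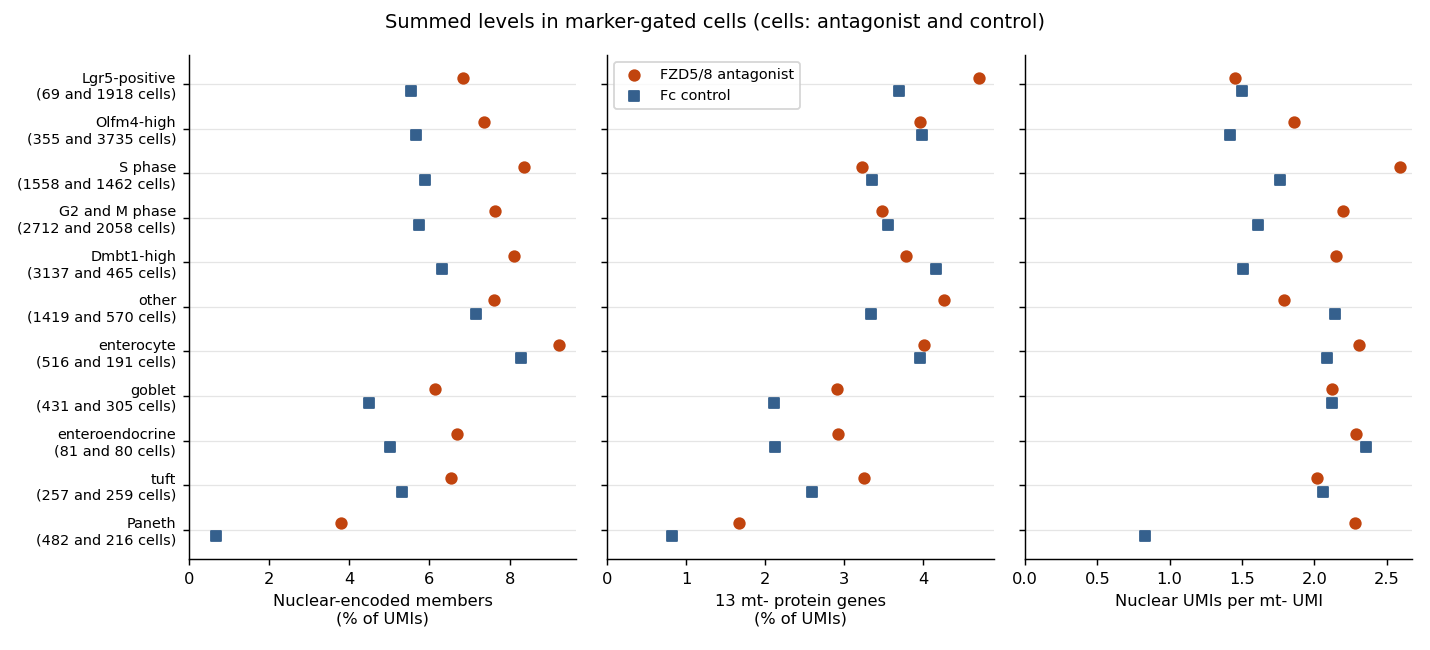
Summed share of the 88 nuclear members (left) and the 13 mt- protein genes (middle), in percent of UMIs, and nuclear UMIs per mt- UMI (right), in 11 marker gates (rows, with antagonist and control cell numbers), for the FZD5/8 antagonist library and the Fc control library. The antagonist point lies to the right of the control point in all 11 rows of the left panel, and the order changes from row to row in the other panels.

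The isoform genes also differed between the gates. In enterocyte-gated cells Cox7a1 was at 584 CPM in the antagonist library and 505 CPM in the control library (1.16, 1.06 to 1.26), and it made up 21.7% and 21.4% of Cox7a1 and Cox7a2 UMIs. The direction of the level in this gate turned with gate limits halved (log2 ratio -0.25 in place of 0.21). In Lgr5-positive cells it was at 74.1 CPM in the antagonist library and 9.28 CPM in the control library (7.99, 6.06 to 10.5), with shares of 4.90% (4.04 to 5.88) and 0.908% (0.744 to 1.10). The log2 ratio of its level in this gate, 3.00, was 2.56 with gate limits doubled and 1.61 with gate limits halved. The share was 3.90% against 1.23% in the G2 and M phase gate, 3.33% against 1.25% in S phase and 2.27% against 0.852% in Olfm4-high cells. It was 4.65% (4.38 to 4.93) against 3.71% (3.04 to 4.47) in Dmbt1-high cells and 4.13% against 3.96% in cells outside the named gates, where the intervals overlapped. With each cell weighted alike, the log2 ratio of its level was 1.40 in place of 0.83 in Dmbt1-high cells and 1.43 in place of 0.23 outside the named gates, where it was -0.03 in cells of 4000 UMIs or more.

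Cycs was also highest in enterocyte-gated cells, at 3039.7 against 2692 CPM (1.13, 1.09 to 1.17), and in Lgr5-positive cells it was at 927 against 513 CPM (1.81, 1.70 to 1.92). In S phase cells it was at 1378 against 794 CPM (1.74) and in G2 and M phase cells at 1294 against 758 CPM (1.71), while outside the named gates it was at 1179 against 1138 CPM (1.04, 0.997 to 1.08). The direction in enterocyte-gated cells turned with gate limits halved (log2 ratio -0.07 in place of 0.18). Outside the named gates the log2 ratio of Cycs, 0.05, was 0.76 with each cell weighted alike and -0.15 in cells of 4000 UMIs or more, and in Lgr5-positive cells it was 1.45 with cells thinned to 2000 UMIs in place of 0.85.

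Enterocyte markers had higher medians in the antagonist cells of these gates too: 38.3 against 10.6 UMIs per 10000 in Lgr5-positive, 28.0 against 12.7 in S phase and 18.2 against 10.9 in Olfm4-high cells. The part of these markers, or of free RNA from enterocytes, in the Cox7a1 and Cycs values was not tested.

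The isoform shares of Atp5g2 and Cox6b2 ran the other way. For Cox6b2 the share was lower in the antagonist library in each of the 11 gates. For Atp5g2 it was lower in each gate except the enterocyte gate. The level of Atp5g2 was higher in the antagonist library in 7 of the 11 gates, and that of Cox6b2 in 3. The Atp5g2 share of c ring UMIs was 19.2% and 18.5% in enterocyte-gated antagonist and control cells, but 29.3% (28.3 to 30.4) against 39.5% (39.1 to 40.0) in Lgr5-positive cells and 32.4% against 38.2% in Olfm4-high cells. Other differentiated gates had lower shares too, at 28.2% against 37.3% in enteroendocrine and 27.7% against 35.4% in Paneth cells. Tuft cells had 27.2% against 33.1% and goblet cells 29.3% against 34.5%. The share was 27.1% against 34.2% in G2 and M phase and 26.9% against 32.6% in S phase. Cox6b2 was at 12.9 against 23.7 CPM in Lgr5-positive cells, from 19 and 271 UMIs, and at 2.19 against 4.52 CPM in enterocyte-gated cells, from 5 and 9 UMIs. Its share of Cox6b1 and Cox6b2 UMIs was 0.718% (0.433 to 1.12) against 1.73% (1.53 to 1.94) in Lgr5-positive cells. The intervals of this share also lay apart in Olfm4-high (0.652% against 1.48%), G2 and M phase (0.606% against 1.55%) and S phase cells (0.404% against 1.09%). They did so in Paneth cells too (0.437% against 1.69%, from 14 and 10 Cox6b2 UMIs). The intervals overlapped in other gates, among them Dmbt1-high cells (0.477% against 0.531%), cells outside the named gates (0.844% against 0.925%) and enterocyte-gated cells.

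**Figure D5:**
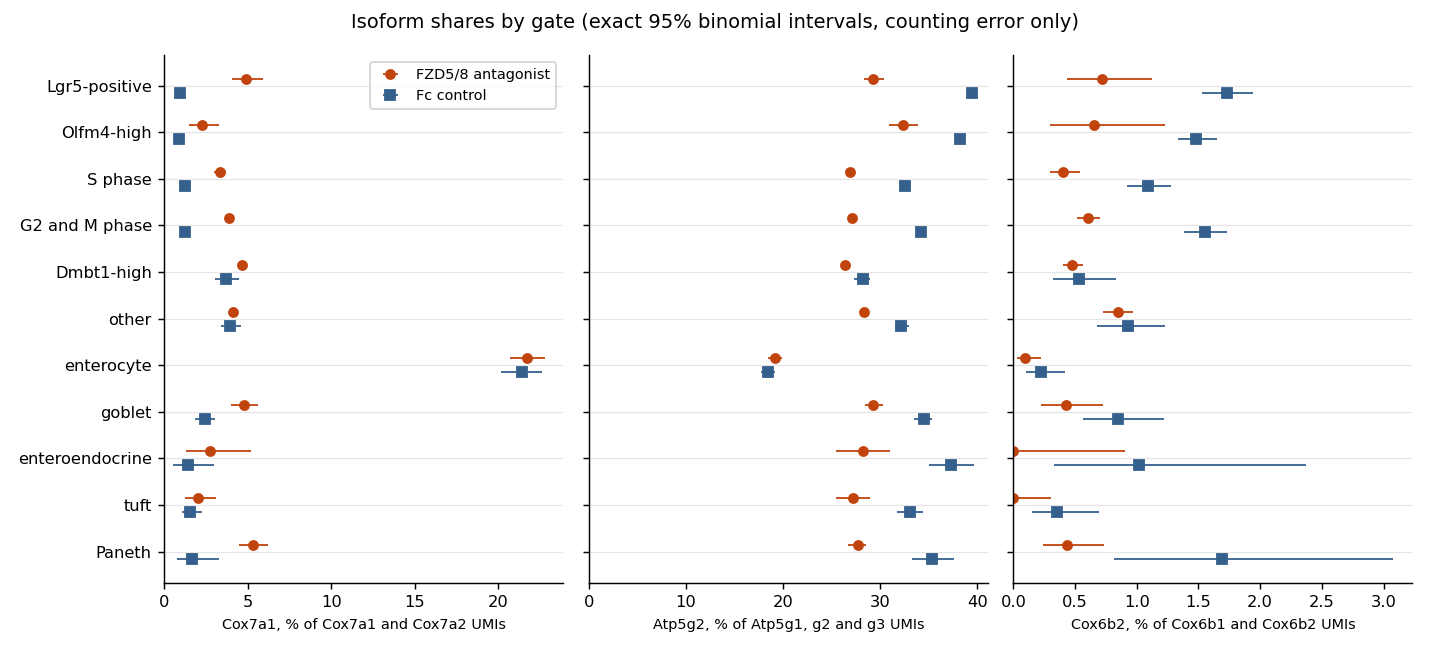
Share of Cox7a1 in Cox7a1 and Cox7a2 UMIs (left), of Atp5g2 in c ring UMIs (middle) and of Cox6b2 in Cox6b1 and Cox6b2 UMIs (right), in percent with exact 95% binomial intervals, in 11 marker gates (rows), for the FZD5/8 antagonist library and the Fc control library. In enterocyte-gated cells the libraries lie close together in the left and middle panels, at 21.7% and 21.4% for Cox7a1 and 19.2% and 18.5% for Atp5g2, whereas in Lgr5-positive cells the antagonist share is higher for Cox7a1 and lower for Atp5g2 and Cox6b2. The antagonist share of Atp5g2 is lower in every row except enterocyte, and that of Cox6b2 in all 11 rows.

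Within each library, enterocyte-gated cells were set against Lgr5-positive cells. In the antagonist library the summed members had a ratio of 1.35, with 54 of 88 more than 1.2-fold higher (29.5% of all genes) and 10 lower (50.6%). In the control library the ratio was 1.5, with 69 of 88 higher (23.0% of all genes) and 8 lower (64.0%). The enterocyte over Lgr5-positive ratio of Cox7a1 was 7.88 (6.48 to 9.67) in the antagonist library and 54.4 (44.5 to 67.1) in the control library, that of Cycs 3.28 (3.09 to 3.48) and 5.25 (5.05 to 5.44), and that of Atp5g2 0.735 (0.693 to 0.779) and 0.543 (0.517 to 0.570). The mt- genes had ratios of 0.851 and 1.07. These values use the same gated cells as the comparison between libraries and are no separate evidence.

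Other mitochondrial genes were read from lists against the same background of 15.4% higher and 36.3% lower at 1.2-fold. Of 17 regulators of mitochondrial biogenesis, 2 were higher and 5 lower (median ratio 0.902, against 0.912 for all genes): Ppargc1b, a coactivator, was at 37.6 against 29.7 CPM (1.27) and the nuclear receptor Esrra at 45.5 against 36.4 CPM (1.25), while Yy1 was at 106 against 132 CPM (0.800). Of 19 complex IV assembly genes 9 were higher and none lower (median 1.18), and of 19 assembly genes of other complexes 4 were higher and 1 lower (1.02). Of 14 citric acid cycle genes 6 were higher and none lower (1.13), led by malate dehydrogenase Mdh2 at 599 against 369.8 CPM (1.62).

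Of 9 carriers and outer membrane channels 1 was higher and 1 lower (median 1.12): the adenine nucleotide translocases Slc25a5 and Slc25a4 were at 685 against 532 CPM (1.29) and 27.6 against 61.7 CPM (0.446). Of 17 import genes 7 were higher and none lower (1.18). Mitochondrial ribosomal protein genes had 21 of 78 higher and none lower (1.09), whereas cytosolic ribosomal protein genes, the counterpart outside mitochondria, had 1 of 80 higher and 15 lower (0.899). The median of each of these lists lay below the members' 1.32.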

How the data were processed

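The deposited files hold raw UMI counts per gene and barcode for 2 libraries, 1 per group, from 10x Genomics 3' chemistry; each UMI is 1 tag near a transcript's end, so levels need no correction for length. Per the file headers they come from Cell Ranger 3.1.0, and per the submitters' processing notes from the builds named GRCm38 and mm10. How barcodes were selected, and with which annotation, is not given in these sources. The members, marker and gene lists were chosen with earlier results of these data known, and gate limits were set on the values. Named are the 8 highest and 8 lowest members at 20 CPM or more, the most abundant of complexes I, III, IV and V, and fixed isoform, complex II and mt- genes; 1 gene of this rule is not reported here.

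Cells had at least 500 genes and at most 20% mt- UMIs. Counts were summed per library and gate and divided by all UMIs there (CPM), with exact Poisson, Clopper-Pearson and conditional binomial 95% intervals in Python 3.11.15 and scipy 1.17.1; UMIs of 1 library are not replicates. The ratios and intervals were run on simulated Poisson counts with known folds. Such counts hold no variation between cells, mice or libraries, so they check the calculation only. No doublet caller was run, so doublets remained. A gate needed at least 3 of its markers, except those of single genes. Within 25% of a gate's limit lay 2295 antagonist and 1040 control cells for G2 and M phase, 2193 and 1952 for S phase, 2756 and 888 for Dmbt1, 860 and 913 for Olfm4, 253 and 56 for the enterocyte gate and 180 and 183 for the Paneth gate. A non-epithelial gate of 2 and 4 cells was not compared.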

Additional observations from a re-analysis of the deposited data

Results flagged for a closer look

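Nuclear UMIs per mt- UMI stood apart by depth of the cell: their ratio of antagonist over control was 3.75 in cells from 1000 to below 2000 UMIs and 0.713 in cells of 16000 or more. The mt- protein genes went in opposite directions at those depths, with ratios of 0.50 and 1.80. These differences between depths were not tested, since each depth has 1 library per group. In the barcodes left out by the cell limits, 2066 in the antagonist library and 1409 in the control library, nuclear UMIs per mt- UMI were 0.410 and 0.177, in the same order as in the kept cells.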

How the results depend on the processing

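No paired analysis was possible because each group has 1 library, and for the same reason no library could be left out. Values below are log2 ratios of antagonist over control unless called counts. Gates or depth ranges weighted alike have the same weight in both libraries, the mean of their shares of cells. The members' sum, 0.46 in the report, kept its direction in 15 of 15 alternatives: 0.45 with at least 1000 genes and at most 10% mt- UMIs per cell, 0.41 without mt- and ribosomal protein genes in the denominator, 0.59 with a median-of-ratios denominator, 0.58 with each cell weighted alike, 0.57 with cells thinned to 2000 UMIs (4115 antagonist and 2380 control cells left out), 0.37 with gates weighted alike, 0.68 with depth ranges weighted alike, and 0.43 without differentiated gates. In cells of 4000 UMIs or more it was 0.40 and in cells of 4000 to 16000 UMIs 0.53; these last settings were chosen after seeing the data. The median-of-ratios denominator shifted all genes by the median of -0.13.

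The mt- sum, 0.08 in the report, kept its direction in 9 of 12. In the order above it was 0.23, 0.03, 0.21, -0.34, -0.17, 0.06, -0.57, 0.03, 0.30 and 0.04, and 0.05 without a limit on mt- UMIs. Nuclear UMIs per mt- UMI, 0.38 in the report, were 0.21 with the stricter cell limits, 0.40 without the mt- limit, 0.92 with cells alike, 0.74 thinned, 0.32 with gates alike, 1.25 with depths alike, 0.40 without differentiated gates, 0.10 from 4000 UMIs and 0.49 from 4000 to 16000. The count of members past 1.2-fold higher, 71, was 14 at 1.5-fold and 60 to 80 otherwise. The count lower, 1, was 2 without mt- and ribosomal protein genes, without differentiated gates and from 4000 UMIs.

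Among values past 1.2-fold in the report, 8 changed sign. mt-Nd1 was -0.24 with cells alike, -0.03 thinned and -0.45 with depths alike, and mt-Nd3 was -0.16 with depths alike. With cells alike, mt- genes were -1.54 in the Paneth gate, -0.06 in the Lgr5-positive gate and -0.57 outside the named gates, where they were also -0.06 with halved gate limits. The cause was not tested. Members with few UMIs, such as Cox6b2 within gates, are limited by depth.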
